A study of Mus musculus with 10 samples.

Results

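Gt(ROSA)26Sor, Setd5, Thumpd3 and Kmt2e were followed in macrophages that carry a human WDFY3 knock-in and in wild-type macrophages. They are 4 of the 54307 genes in the count table. The 4 were chosen from a list of symbols drawn up with the knock-in-over-control differences of these libraries known: the non-coding transcript of the Rosa26 locus and its neighbour Setd5, whose low levels in the knock-in libraries put them on the list, the gene on the other side of the transcript, Thumpd3, and the Setd5 paralog Kmt2e. Their differences between the groups are therefore given as a description, with no p-value. All 4 symbols matched 1 gene ID each, and all 4 genes were among the 12411 genes expressed strongly enough to be tested. Gt(ROSA)26Sor passed that filter through the control libraries alone.

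Bone-marrow-derived macrophages (BMDMs) were grown from the marrow of male mice 6 to 8 weeks old in medium with L-929 fibroblast supernatant and were taken at day 7. One group of 5 libraries came from hWDFY3 KI/KI mice, homozygous for the human knock-in and labelled as overexpressing human WDFY3. The other 5 came from wild-type controls. The labels count 5 mice per genotype, 1 for each library. Neither the locus, the promoter that drives the human gene, the strain background nor whether the controls were littermates is given in the sources used here. Poly(A)+ RNA was read as strand-specific 100-bp pairs. The libraries held 15.2 to 22.9 M (mega) estimated counts in the KI/KI group and 14.6 to 36.4 M in the control group.

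The labelled cell type was checked against 8 macrophage markers, all of which were tested and whose summed level was 30059 to 37070 CPM in KI/KI and 24013 to 34907 CPM in control libraries. CPM are counts per M counts of the library, after TMM scaling of the library sizes. The 8 stromal markers summed to 2.20 to 86.5 CPM in KI/KI and 5.28 to 148 CPM in control libraries, the 8 neutrophil markers to 3.58 to 19.0 and 6.24 to 49.7 CPM, and the 6 lymphocyte markers to 1.67 to 3.84 and 2.28 to 4.54 CPM. No listed marker was at 0 in all libraries. KI/KI 4 stood apart in its group by its stromal RNA, and controls 1 and 4 did in theirs. The same libraries had the most neutrophil RNA of their groups. KI/KI 4 was at 19.0 CPM beside at most 10.5 CPM in the other KI/KI libraries. Controls 1 and 4 were at 38.7 and 49.7 CPM beside at most 13.2 CPM in the other controls. The mouse gene Wdfy3 was at 120 ± 6.19 CPM in KI/KI and 110 ± 9.83 CPM in control macrophages (SD, n = 5 each). All 5 KI/KI libraries lay above the control median, and the groups overlapped. It did not pass the test (edgeR quasi-likelihood test, adjusted p = 0.811). Whether reads of the human transcript were counted under Wdfy3 was not tested. Since the table counts mouse genes, Wdfy3 checks neither the labels nor the human transcript.

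Gt(ROSA)26Sor is a non-coding RNA found through a gene trap line of mice, and its locus is transcribed in most mouse tissues and is widely used to insert transgenes. Setd5 encodes a large SET-domain protein that associates with the NCoR-HDAC3 corepressor and the PAF1 elongation complex in mouse cells, and the loss of 1 copy in humans causes intellectual disability with autistic features. Kmt2e, also known as Mll5, encodes the closest relative of Setd5. Its PHD finger binds methylated histone H3, and mice without it have defects in blood stem cells. Thumpd3 encodes the catalytic subunit of a tRNA guanosine methyltransferase that in human cells works with TRMT112.

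In GENCODE M21 (GRCm38), the gene for the Rosa26 transcript (ENSMUSG00000086429) lies on chromosome 6 from 113067428 to 113077333 on the minus strand. Setd5 (ENSMUSG00000034269, 113077365 to 113153435) is on the plus strand and points away from it, with 31 bases between the annotated starts. Thumpd3 (ENSMUSG00000030264, 113046225 to 113068273), also on the plus strand, runs towards the 3′ end of Gt(ROSA)26Sor and overlaps its span by 846 bases. Of these, 145 bases are exonic in both genes, all within coding sequence of Thumpd3, which is 8.55% of the merged exons of Gt(ROSA)26Sor. Kmt2e (ENSMUSG00000029004, 23434441 to 23504235, plus strand) is on chromosome 5. The files carry no coordinates, and the processing notes name GRCm39 as well as mm10, so the positions are those of the M21 annotation for these gene IDs.

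Gt(ROSA)26Sor has 4 annotated transcripts of 412 to 1181 bases. Their first exons begin at different bases, and all 4 then hold the same opening 142 bases of the second exon. A first exon and this shared stretch are shown as parts of the annotated RNA. The 5 counts left over the KI/KI libraries are per gene and cannot be placed on exons. The first is the first exon that reaches closest to Setd5 (chr6:113077174-113077333, minus strand), with 16 CpG sites in 160 bases and a G+C content of 71.9%. The second is the shared opening of the second exon (chr6:113071294-113071435, minus strand), with 1 CpG site in 142 bases. Both are from GENCODE M21, are written 5′ to 3′, and have their CpG sites in capitals.
Gt(ROSA)26Sor first exon: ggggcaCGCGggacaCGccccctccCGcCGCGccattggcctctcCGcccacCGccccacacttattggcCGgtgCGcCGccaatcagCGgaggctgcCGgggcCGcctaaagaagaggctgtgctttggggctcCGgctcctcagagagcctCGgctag
Gt(ROSA)26Sor second exon: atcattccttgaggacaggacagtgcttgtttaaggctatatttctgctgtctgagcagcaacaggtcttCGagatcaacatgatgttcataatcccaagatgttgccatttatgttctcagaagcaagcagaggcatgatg

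How far reads can be assigned to these genes was read from the same transcripts, by asking which stretches of 31 bases also occur in transcripts of other genes. Gt(ROSA)26Sor shared 0 of its 1693 such stretches with another gene on the same strand and 118 (6.97%) with Thumpd3 on the opposite strand. Setd5 shared 0.167% on the same strand and 0.108% on the opposite one. Kmt2e shared 0.0282% on the same strand but 8.86% with Srpk2, a kinase gene that overlaps it, on the opposite strand. Thumpd3 shared 2.90% on the same strand and 3.56% on the opposite one. Libraries were strand-specific per the labels. The sources used here do not say if strand entered the quantification, and without it these shared reads cannot be told apart.

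The Rosa26 transcript was nearly absent from the KI/KI macrophages. In the order of the replicate numbers, it was at 0.0975, 0, 0, 0.0512 and 0.0956 CPM in the KI/KI libraries and at 1.96, 1.89, 4.32, 3.74 and 5.98 CPM in the control libraries. Every KI/KI library lay below every control library. The KI/KI libraries held 5 counts in all and at most 2 in any library, at or under the 3 counts that serve as the detection floor, and 2 of them held 0. The control libraries held 40 to 132 counts each and 380 in all. From these sums the level was 68.3-fold lower in KI/KI (95% exact Clopper-Pearson interval 29.0 to 212-fold, covering counting error only). The fitted log2 fold change was -5.98 ± 0.56 (SE), and its exact size rests on the few KI/KI counts. In bulk RNA, fewer cells that make a transcript and less of it per cell cannot be told apart.

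The transcript was scarce even in wild-type macrophages and varied among them. The control mean was 3.58 ± 1.72 CPM (SD, n = 5), and the highest control library had 3.16 times the level of the lowest. On the log2 scale its SD among the controls was 0.71, larger than for 96.2% of the tested genes, at a depth where the counts of each library are few. The stromal markers of controls 1 to 5 summed to 145, 10.2, 5.28, 148 and 6.63 CPM. Controls 3 and 5, with the least stromal RNA, had the most Gt(ROSA)26Sor, and control 2, with the next least, had the least Gt(ROSA)26Sor. The part of stromal RNA in this spread was not tested.

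Setd5, on the other side of the 31 bases, was partly lower in every KI/KI library. Its level was 52.7, 49.1, 47.7, 52.9 and 50.3 CPM in the KI/KI libraries and 76.2, 73.5, 69.1, 74.6 and 72.1 CPM in the control libraries. The groups did not overlap, and 16.2 CPM lay between the highest KI/KI and the lowest control library. The means were 50.5 ± 2.29 CPM in KI/KI and 73.1 ± 2.68 CPM in control macrophages (SD, n = 5 each), which is 30.9% lower. The fitted log2 fold change was -0.53 ± 0.049 (SE). These values rest on 755 to 1092 counts per KI/KI library and 1109 to 2631 counts per control library.

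The level of Setd5 varied little within each genotype. The SD of its log2 CPM was 0.066 in KI/KI and 0.053 in control libraries, and 17.9% and 4.25% of the tested genes had a smaller SD in those groups. That comparison takes in genes with far fewer counts. Kmt2e was much alike, with SDs of 0.061 and 0.068 and 15.2% and 8.74% of the tested genes below it. Setd5 was highest in control 1 and control 4 and, within the other genotype, in KI/KI 4, the 3 libraries with the most stromal RNA. Controls 2, 5 and 3, in falling order of stromal RNA (10.2, 6.63 and 5.28 CPM), also fell in Setd5 (73.5, 72.1 and 69.1 CPM). Controls 4 and 1 were in the reverse order (148 and 145 CPM beside 74.6 and 76.2 CPM of Setd5). Within KI/KI, below KI/KI 4, the order was not that of stromal RNA. KI/KI 1, with stromal markers at 3.22 CPM, had 52.7 CPM of Setd5, beside 52.9 CPM in KI/KI 4. KI/KI 3, with the next most stromal RNA (21.2 CPM), had the least Setd5. Without control 1, control 4 and KI/KI 4, left out after seeing the data, the log2 fold change of Setd5 was -0.52 ± 0.058. The part of stromal RNA in the level of Setd5 was not tested. Among the controls, Setd5 and Gt(ROSA)26Sor were not in the same order. Control 5 had the most Gt(ROSA)26Sor and the second lowest Setd5, and control 1 had the most Setd5 and the second lowest Gt(ROSA)26Sor.

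**Figure D1:**
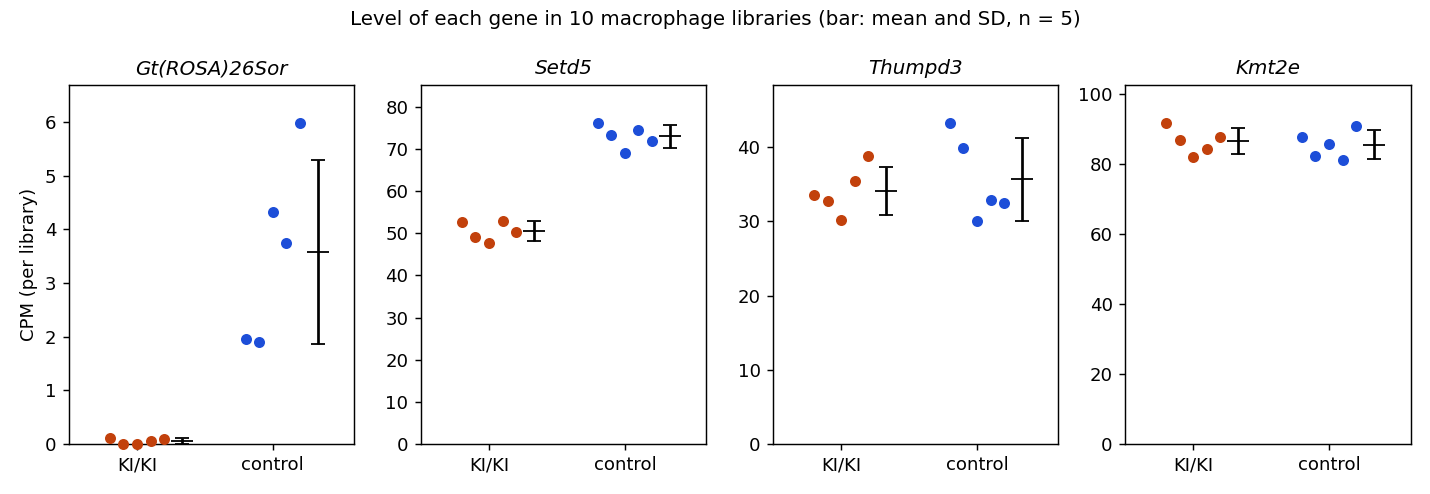
CPM of the 4 genes in each of the 5 KI/KI libraries (orange, left) and the 5 control libraries (blue, right), with the mean and SD as black bars on an axis that starts at 0. Gt(ROSA)26Sor lies between 0 and 0.0975 CPM in KI/KI and 1.89 and 5.98 CPM in control libraries, and Setd5 between 47.7 and 52.9 and 69.1 and 76.2 CPM, while the groups overlap for Thumpd3 and Kmt2e.

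On the deposited regularized-log scale, which draws low or noisy genes towards their mean, Gt(ROSA)26Sor was at 4.85 ± 0.0084 in KI/KI and 5.20 ± 0.090 in control libraries, and Setd5 at 10.10 ± 0.034 and 10.47 ± 0.039 (log2 units, SD, n = 5 each). The groups did not overlap for either gene on this scale. The differences were -0.35 for Gt(ROSA)26Sor and -0.37 for Setd5, so that a near-complete and a partial loss have nearly the same size there.

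The gene-level counts pool all 14 annotated transcripts of Setd5. The window that RefSeq gives for a Setd5 start lies 27.6 kb inside the gene as GENCODE draws it, well away from the start that faces Gt(ROSA)26Sor. It is shown because this start differs from the GENCODE one. Whether RNA begins there in these macrophages was not tested, and the pooled counts cannot show it. This window of 300 bases (chr6:113104685-113104984, plus strand, RefSeq on GRCm38.p6, 250 bases before the start and 50 after it, CpG site in capitals) holds 1 CpG site. Of 32851 windows of that length in the table, 85.9% hold more.
Setd5 inner start: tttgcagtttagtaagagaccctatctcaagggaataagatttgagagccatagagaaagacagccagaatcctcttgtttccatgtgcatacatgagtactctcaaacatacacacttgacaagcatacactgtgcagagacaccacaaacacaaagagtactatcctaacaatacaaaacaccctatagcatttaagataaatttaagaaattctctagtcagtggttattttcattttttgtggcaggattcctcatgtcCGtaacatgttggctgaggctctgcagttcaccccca

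Thumpd3, which shares exonic bases with Gt(ROSA)26Sor, was at 33.6, 32.7, 30.2, 35.4 and 38.9 CPM in the KI/KI libraries and at 43.2, 39.9, 30.0, 32.9 and 32.5 CPM in the control libraries. The groups overlapped, and controls 1 and 2 were the highest of the 10. The means were 34.2 ± 3.26 CPM in KI/KI and 35.7 ± 5.59 CPM in control macrophages (SD, n = 5 each). The fitted log2 fold change was -0.066 ± 0.10, and 2 SE on either side reach from -0.27 to 0.14. Without control 1 it was 0.013, so it has no settled sign.

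Kmt2e was at 91.6, 86.8, 81.8, 84.3 and 87.8 CPM in the KI/KI libraries and at 87.7, 82.2, 85.6, 81.0 and 90.9 CPM in the control libraries. The groups lay over each other, with 3 of 5 KI/KI libraries above the control median. The means were 86.5 ± 3.68 CPM in KI/KI and 85.5 ± 4.04 CPM in control macrophages (SD, n = 5 each). The fitted log2 fold change was 0.017 ± 0.051, and 2 SE on either side reach from -0.085 to 0.12. On the deposited log2 values the difference was -0.028, so its sign is not settled either.

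In edgeR's fit over all 12411 tested genes, 0.0403% of the genes were called lower and 0.0806% in either direction at a Benjamini-Hochberg threshold of 0.05. The genes called lower include 2 of the 4, a count that their choice from this contrast had fixed. Gt(ROSA)26Sor and Setd5 also had groups that did not overlap, with KI/KI lower, as was the case for 0.588% of the tested genes, while 1.32% had no overlap in either direction. Nothing is read from these counts.

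The other genes around the locus had overlapping groups. Within 250 kb of the Rosa26 transcript, 16 further genes are annotated, of which 4 were expressed strongly enough to be tested. In edgeR's quasi-likelihood test 0 of these 4 passed, 0 had an unadjusted p under 0.05, and DESeq2 also called 0. Srgap3, a GTPase-activating protein of the Slit-Robo pathway and the nearest tested gene beyond Thumpd3, was at 3.43 ± 1.35 CPM in KI/KI and 2.88 ± 0.399 CPM in control macrophages (log2 0.25 ± 0.24, adjusted p = 0.891). Mtmr14, a phosphoinositide phosphatase and the nearest tested gene beyond Setd5, was at 33.4 ± 1.81 and 34.9 ± 3.48 CPM (log2 -0.060 ± 0.071, adjusted p = 0.906).

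Brpf1, a scaffold of histone acetyltransferase complexes, and Ogg1, a DNA glycosylase that removes oxidized guanine, lie further out on that side. Brpf1 was at 52.0 ± 1.89 CPM in KI/KI and 53.4 ± 3.02 CPM in control macrophages, and Ogg1 at 7.35 ± 0.704 and 7.60 ± 1.24 CPM. The groups overlapped for all 4 genes. The median log2 fold change of the 4 was -0.044, beside -0.0046 over all tested genes. Out to 1000 kb, 20 genes besides Setd5 and Thumpd3 were tested, these 4 included. Of the 20, 10 were positive and 10 negative, and 0 passed.

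**Figure D2:**
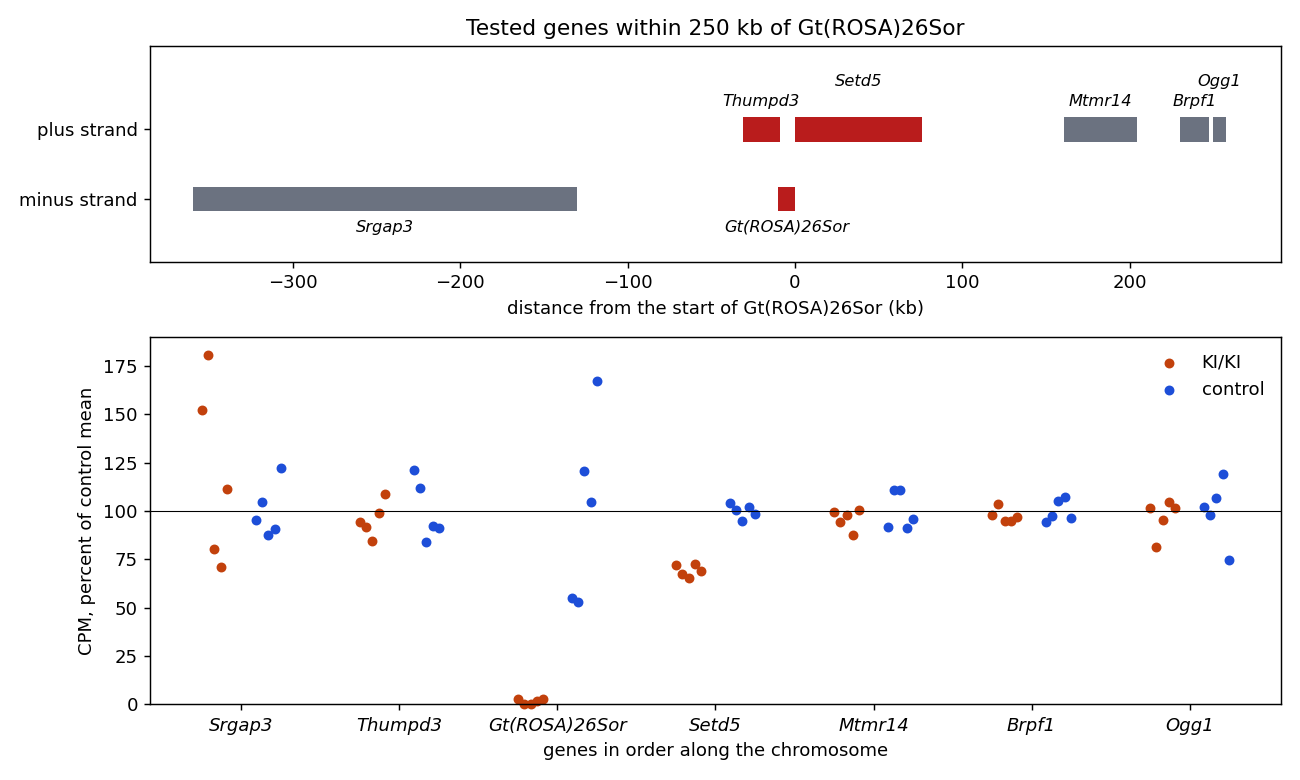
Top, tested genes within 250 kb of Gt(ROSA)26Sor, drawn to scale by distance in kb from its start and by strand. Bottom, CPM of each library as a percent of the control mean of that gene, KI/KI orange and left, control blue and right. The KI/KI libraries lie at 0 to 2.72% for Gt(ROSA)26Sor and at 65.2 to 72.4% for Setd5, and overlap the controls for the other 5 genes.

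Setd5 was next set among the SET-domain proteins, most of which methylate lysines of histones or other proteins. The list held 34 genes besides Setd5 and Kmt2e. Of these, 33 were tested, all but Smyd1. In edgeR's quasi-likelihood test 0 rose and 0 fell, against 0.0806% called over all genes, and DESeq2 also called 0, against 0.378% of the genes it tested. An unadjusted p under 0.05 was found for 1 of them, against 6.21% of all genes. The log2 fold changes were positive for 21 and negative for 12, with a median of 0.0086.

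The lowest of the 33 was Ash1l, a methyltransferase of H3 lysine 36, at 51.6 ± 2.13 CPM in KI/KI and 57.0 ± 4.39 CPM in control macrophages (log2 -0.14 ± 0.059, adjusted p = 0.744). The highest was Kmt5c, which methylates H4 lysine 20, at 18.6 ± 1.50 and 16.2 ± 2.36 CPM (log2 0.20 ± 0.10, adjusted p = 0.81). Setd7, a methyltransferase of H3 lysine 4 and of many non-histone proteins, was at 90.4 ± 3.05 and 83.0 ± 6.47 CPM (log2 0.12 ± 0.058, adjusted p = 0.799). The groups overlapped for every one of the 33.

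**Figure D3:**
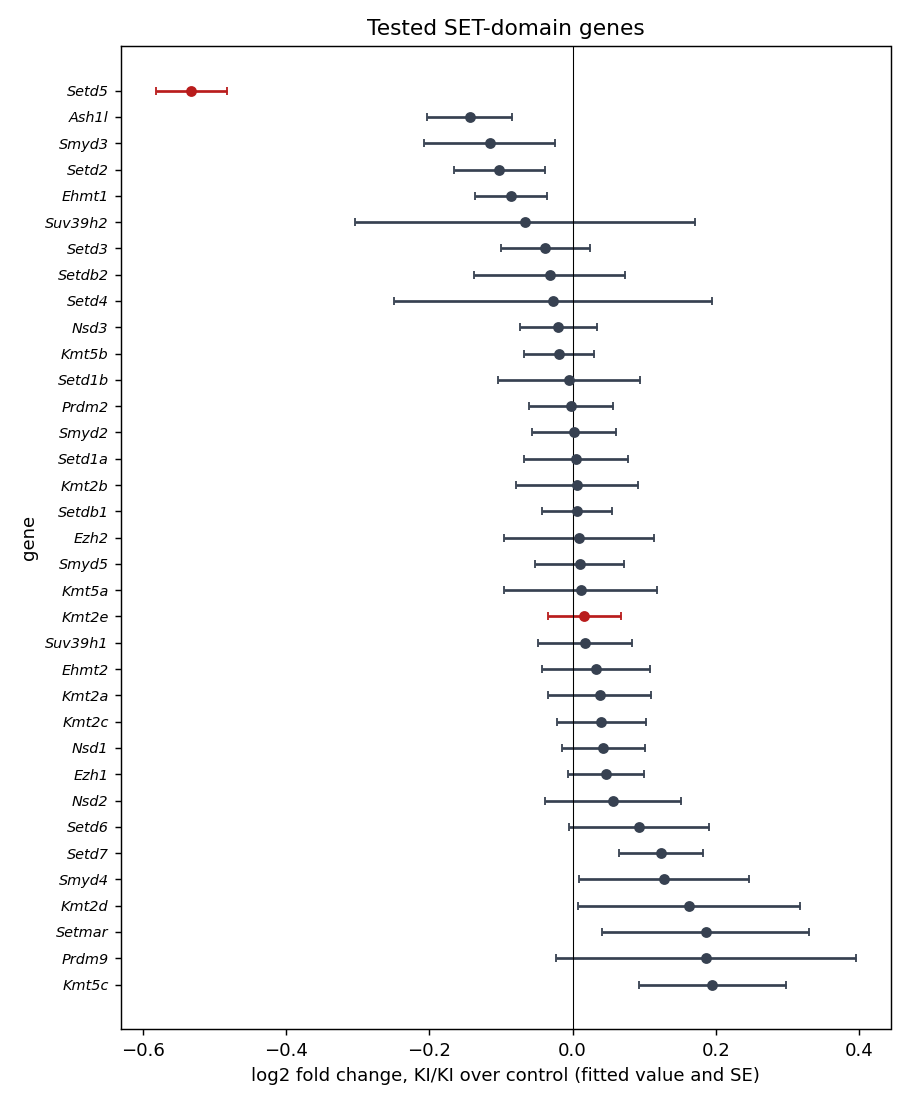
Fitted log2 fold change of KI/KI over control with its SE for the 35 tested SET-domain genes, Setd5 and Kmt2e in red, positive values meaning higher in KI/KI. Setd5 stands at -0.53, and the others run from -0.14 for Ash1l to 0.20 for Kmt5c.

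Levels were compared between these genes per length, as CPM per kb of merged annotated exons. Per kb, Kmt2e was at 8.28 ± 0.353 in KI/KI and 8.19 ± 0.387 in control macrophages, Thumpd3 at 5.21 ± 0.497 and 5.45 ± 0.854, Setd5 at 2.76 ± 0.125 and 3.98 ± 0.146, and Gt(ROSA)26Sor at 0.0288 ± 0.0285 and 2.11 ± 1.01 (SD, n = 5 each). The length counts the exons of all annotated transcripts, 18.3 kb for Setd5. Among the 35 tested SET-domain genes Setd5 ranked 26th from the top in KI/KI and 19th in control macrophages, and Kmt2e 7th and 6th. Setd3, an actin histidine methyltransferase, led the order in the controls at 19.9 per kb and was at 19.4 per kb in KI/KI.

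In the KI/KI libraries Setd5 ran from 2.60 to 2.89 per kb, overlapping Kmt2c above it (2.67 to 3.01), while Kmt5b below it (2.42 to 2.57) did not reach it. In the control libraries it ran from 3.77 to 4.15 per kb and overlapped both Kmt2a above it (3.66 to 4.42) and Ash1l below it (3.54 to 4.29). Kmt2e ran from 7.83 to 8.77 per kb in the KI/KI libraries, where it overlapped Setd7 above it (8.04 to 8.73), while Ezh1 below it (5.74 to 6.32) did not reach it. In the control libraries it ran from 7.75 to 8.71 per kb and overlapped both Smyd2 above it (8.00 to 9.07) and Setd7 below it (7.02 to 8.41).

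The complexes that Setd5 associates with were measured through 12 genes, all tested. In edgeR's quasi-likelihood test 0 rose and 0 fell, beside 0.0806% called over all genes, and DESeq2 also called 0, beside 0.378%. An unadjusted p under 0.05 was found for 1 of the 12, beside 6.21% of all genes. The log2 fold changes were positive for 8 and negative for 4, with a median of 0.0023. Hdac3, the histone deacetylase of the corepressor, was at 34.4 ± 0.461 CPM in KI/KI and 34.3 ± 1.62 CPM in control macrophages, and its scaffold Ncor1 at 136 ± 6.06 and 136 ± 5.02 CPM. Of the PAF1 complex, Cdc73 was at 39.9 ± 1.83 and 35.1 ± 2.48 CPM (log2 0.18 ± 0.059, adjusted p = 0.657) and Paf1 at 36.3 ± 1.69 and 39.2 ± 1.89 CPM (log2 -0.11 ± 0.053, adjusted p = 0.799). These 2 mark the upper and the lower end of the list.

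Among the partners described for Kmt2e, the O-GlcNAc transferase gene Ogt was at 165 ± 9.05 CPM in KI/KI and 173 ± 13.3 CPM in control macrophages (log2 -0.066 ± 0.064, adjusted p = 0.891). The deubiquitinase gene Usp7 was at 103 ± 3.70 and 106 ± 8.67 CPM. Hcfc1, a chromatin cofactor that Ogt cleaves, was at 104 ± 7.34 and 97.9 ± 11.5 CPM (log2 0.089 ± 0.079, adjusted p = 0.881). In edgeR's quasi-likelihood test 0 of these 3 passed, 0 had an unadjusted p under 0.05, and DESeq2 called 0.

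TRMT112 is the shared activator of several methyltransferases of tRNA, rRNA and proteins, Thumpd3 among them. With other THUMP-domain proteins, 9 genes besides Thumpd3 were listed and tested. In edgeR's quasi-likelihood test 0 passed, 0 had an unadjusted p under 0.05, and DESeq2 called 0. The log2 fold changes were positive for 3 and negative for 6, with a median of -0.021. Trmt112 was at 17.2 ± 1.60 CPM in KI/KI and 16.6 ± 1.57 CPM in control macrophages. Thumpd2, which modifies a spliceosomal RNA in human cells, was at 4.46 ± 0.363 and 5.12 ± 0.450 CPM (log2 -0.20 ± 0.11, adjusted p = 0.818). Bud23, an 18S rRNA methyltransferase, was at 18.9 ± 1.45 and 20.3 ± 1.13 CPM (log2 -0.11 ± 0.070, adjusted p = 0.842). Alkbh8, a tRNA wobble-base methyltransferase, was at the upper end with 13.6 ± 1.67 and 12.8 ± 1.06 CPM (log2 0.10 ± 0.094, adjusted p = 0.891).

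The genes whose values over the 10 libraries were most like those of Setd5 were found by the root mean square gap between log2 CPM values, each gene centred on its own mean. Setd5 itself departs from its mean by 0.27 on this measure. Rassf4, a Ras-association domain protein gene on chromosome 6 (116633008 to 116673952), had the smallest gap at 0.11. It was at 436 ± 14.0 CPM in KI/KI and 597 ± 41.4 CPM in control macrophages. Gm11423, an antisense transcript on chromosome 11, followed with 0.11 and was at 0.634 ± 0.0581 and 0.908 ± 0.103 CPM. Atp6v1e1, a subunit of the lysosomal proton pump encoded on chromosome 6, came next with 0.13, at 193 ± 18.0 and 254 ± 32.4 CPM. Setd5, Rassf4 and Gm11423 had groups that did not overlap, whereas control 5 lay below KI/KI 4 for Atp6v1e1.

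For Gt(ROSA)26Sor the likest genes were less close, at gaps of 0.67 for the lincRNA Gm45184 on chromosome 7, 1.11 for the synaptotagmin gene Syt12 on chromosome 19 and 1.37 for the lincRNA Gm39459 on chromosome 9, beside 2.37 for its own departure from the mean. Gm45184 was at 0.0605 ± 0.0911 CPM in KI/KI and 2.24 ± 0.864 CPM in control macrophages, Syt12 at 0.282 ± 0.475 and 2.58 ± 0.583 CPM, and Gm39459 at 0.487 ± 0.732 and 2.41 ± 1.33 CPM. All 3 are low genes. A likeness over 10 libraries in 2 genotypes mainly records the step between the genotypes.

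**Figure D4:**
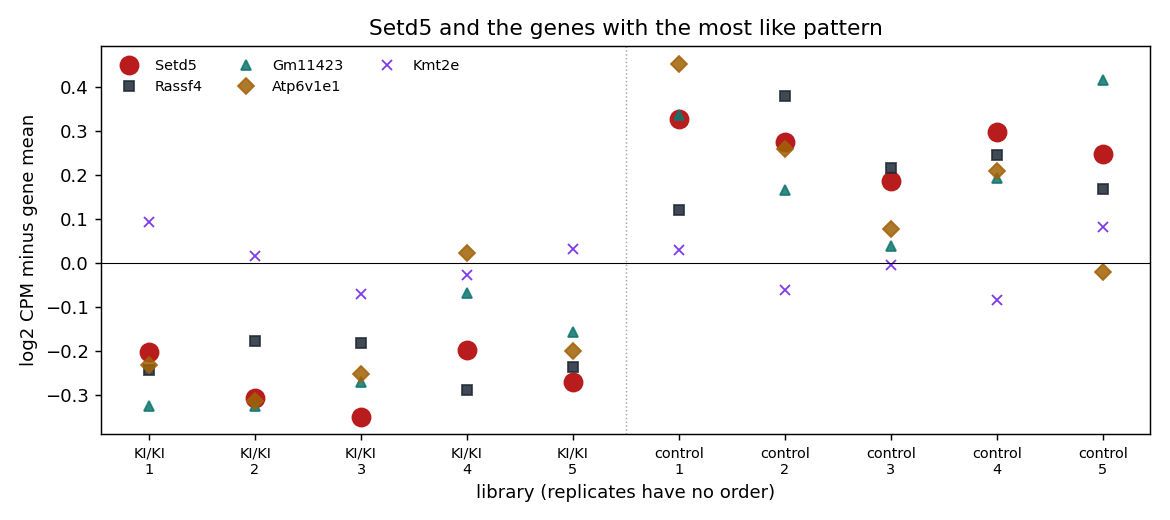
Log2 CPM minus the mean of each gene over the 10 libraries for Setd5, for the 3 genes with the most like values (Rassf4, Gm11423 and Atp6v1e1) and for Kmt2e, KI/KI libraries left of the dotted line and controls right of it. Setd5 lies between -0.35 and -0.20 in KI/KI and 0.19 and 0.33 in control libraries, while Kmt2e stays between -0.085 and 0.092 in all 10.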

How the data were processed

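The authors deposited estimated counts per Ensembl gene (Salmon 1.6.0, per the submitters' processing notes) and log2 values on the regularized-log scale (DESeq2 1.34.0, per the same notes). The builds GRCm39 and mm10 are named without roles. The sources used here do not give the annotation release, the step from transcripts to genes or the use of strand. For the count models, the estimated counts were rounded. Symbols came from the log2 table and, where it had none, from GENCODE M21, which together named 51510 of 54307 gene IDs. All 91 symbols of the lists matched.

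Genes were tested in R 4.3.3 with edgeR 4.0.16, using filterByExpr (minimum count 10, minimum total 15), TMM factors, robust dispersion and the quasi-likelihood F-test over all 10 libraries, with Benjamini-Hochberg adjustment over 12411 genes and a threshold of 0.05. The SE is the size of the log2 fold change over the square root of F. Log2 CPM use a prior count of 2. Alternatives were RLE factors, DESeq2 1.42.0, limma-trend (limma 3.58.1) on the deposited log2 values, other filters on low counts (none beyond a total of 1, or 1 CPM in 5 libraries), the replicate number as a block, a wider distance around the locus and leaving out each library. A fit without the 3 libraries richest in stromal RNA was added after seeing the data. The procedure was tested on simulated data. No pair of libraries agreed within sampling noise (chi-square per gene at least 9.00). P-values set the difference between genotypes against the spread between libraries, 1 for each mouse per the labels. That spread takes in mouse, culture and library, and its estimate draws in part on the other genes.

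The members and lists were chosen with earlier results of these data known. The genes named are the 4 members, Wdfy3, of each list the 2 genes with the smallest p and the ends of its range, the tested genes within 250 kb, and the 3 genes most like Gt(ROSA)26Sor and Setd5. Hdac3, Ncor1, Trmt112, Usp7, Brpf1, Ogg1, Setd3 and the neighbours in the order of levels were named after their values were seen. Shared stretches of 31 bases were counted in the GENCODE M21 transcripts.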

Additional observations from a re-analysis of the deposited data

Results flagged for a closer look

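A single library stood apart in 4 of the 70 groups of 5 libraries formed by the 35 genes named, where chance marks about 1 in 20 groups. Paf1 was highest in KI/KI 5, at 39.3 CPM against 35.4 to 35.8 CPM in the other KI/KI libraries, and in control 1, at 42.5 CPM against 38.0 to 38.6 CPM in the other controls. Of the genes most like Gt(ROSA)26Sor, Syt12 was at 1.13 CPM in KI/KI 4 and at 0 to 0.0975 CPM in the other KI/KI libraries, and Gm39459 was at 1.79 CPM in KI/KI 4 and at 0.0975 to 0.239 CPM in the others. KI/KI 4 is also the library of its group with the most stromal RNA (86.5 CPM of summed markers, against 2.20 to 21.2 CPM in the other KI/KI libraries). It had the most neutrophil RNA as well (19.0 CPM, against 3.58 to 10.5 CPM). The part of either in these values was not tested. None of the 4 genes followed here had such a library in either group.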

How the results depend on the processing

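Setd5 and Gt(ROSA)26Sor stayed lower in KI/KI under every alternative, at -0.55 to -0.51 and -6.34 to -5.65 (log2) without each library in turn. On the deposited log2 values their differences were -0.37 and -0.35. Those of Thumpd3 and Kmt2e were -0.092 and -0.028 there, beside -0.066 and 0.017 in the main fit. Why the values on this scale differ was not tested. Kmt2e and Thumpd3 took either sign without each library in turn (-0.0053 to 0.040 and -0.12 to 0.013). The 10 genes called over all tested genes, 5 higher and 5 lower, became 52 in DESeq2 (34 higher, 18 lower) and 38 without control 1, control 4 and KI/KI 4 (23 higher, 15 lower). Without each library in turn they numbered 6 to 23 (2 to 10 higher, 4 to 13 lower), with 6 without control 2 or KI/KI 1, 2 or 3 and 23 without KI/KI 4. The cause of these shifts was not tested. The 4 pathway lists and the genes within 250 kb and 1000 kb had 0 calls under all 17 alternatives. With the replicate number as a block, 12 genes were called (7 higher, 5 lower), and the log2 fold changes were -0.53 for Setd5 and -6.02 for Gt(ROSA)26Sor. The labels do not say that the replicate numbers pair mice, so the numbers were not taken to do so. The correlation of deviations between same-numbered libraries was -0.20 to 0.51, and 4 of 10 libraries correlated best with their own number. These were the libraries of replicates 4 and 5 (0.51 and 0.25), so the check cannot decide whether the numbers pair mice. Syt12, not called in the main test, was called in DESeq2, on the deposited log2 values, without KI/KI 4 and without the stroma-rich libraries. The same held for Gm39459 in the last 2 and for Atp6v1e1 in DESeq2. Depth limits what can be said of the Rosa26 transcript in KI/KI, where 2 of 5 libraries held no count of it.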
